A study of Mus musculus with 8 samples.

Results

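The interaction of interferon beta (IFNb) and lipopolysaccharide (LPS) asks whether macrophages given both agents hold the RNA levels that their separate responses predict. It uses all 8 libraries of the series, with 2 in each of 4 groups of macrophages. The mice were C57BL6 males of 7 weeks, stimulated in the peritoneum with Saline, LPS or IFNb, each for 4 h, or with IFNb during 4 h and LPS during the next 4 h (LPS+IFNb). The interaction is the difference LPS+IFNb minus LPS, less the difference IFNb minus Saline. No group carries a genetic change per the labels. LPS+IFNb was sampled 8 h after IFNb began and no group received IFNb and then saline, so time since IFNb and interaction cannot be told apart. Whether both libraries of a group stem from separate mice is not stated, so a p-value speaks only of the spread among these 8 libraries, which may be technical.

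LPS, an outer-membrane component of Gram-negative bacteria, is sensed by TLR4. Through MyD88 this receptor activates NF-kB and MAP kinases, which drive inflammatory cytokines, and through TRIF it activates IRF3, which switches on the gene for IFNb itself. IFNb binds the IFNAR receptor, whose kinases JAK1 and TYK2 phosphorylate STAT2 among other factors. STAT2 and IRF9 are part of the ISGF3 complex, which binds the interferon-stimulated response element (ISRE) of antiviral genes. LPS and IFNb therefore share part of their targets, since macrophages stimulated with LPS release interferon that acts back on them, and type I interferon is also known to restrain some inflammatory genes and to support others such as Il10 and Nos2.

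Levels are TPM, an abundance corrected for transcript length that sums to the same total in every library, added up over the transcripts of a gene. Of 30284 genes with a value, 13009 were tested. Sequencing depth is unknown, because TPM keeps no read number. Replicates correlated at 0.971 to 0.983 in log2(TPM + 1) across genes. The pan-macrophage genes Cd68 (2694 to 3367 TPM over the 8 libraries) and Adgre1, which codes for F4/80 (189 to 307 TPM), were high. Gata6, the factor that defines resident large peritoneal macrophages, stood at only 0.862 to 2.11 TPM, and Timd4 at 0.427 to 3.38 TPM. Other members of the same list of 20 large peritoneal macrophage markers were higher. F10 stood at 132 to 719 TPM, Cd93 at 31.2 to 187 and Icam2 at 7.9 to 19.6, so the list did not go 1 way. Summed marker levels of other cells moved with the treatments, in part through few members. The summed level of 15 dendritic cell markers was 178 to 188 TPM under saline and 1013 to 1035 TPM under LPS+IFNb. Bst2, also an interferon-stimulated gene, made up 98.8 and 82.5 and then 859 and 814 TPM of it, while Flt3 went from 1.03 and 1.33 to 0.195 and 0.127 TPM. That of 16 monocyte and small peritoneal macrophage markers was 176 to 177 and 658 to 706 TPM. Plac8 went from 24.7 and 20.6 to 204 and 271 TPM and Ccr2 from 34.1 and 31.5 to 5.34 and 8.02. That of 18 B cell markers was 279 to 282 and 155 to 160 TPM. That of 19 neutrophil markers was 335 to 432 and 491 to 647 TPM, with Lcn2 going from 2.09 and 2.51 to 203 and 151 TPM. Retnlg went from 73.9 and 128 to 66.1 and 27.3 TPM, and Ly6g stood at no more than 0.746 TPM in any library. Their part in the interactions was not tested, and in bulk RNA fewer cells of a type and less RNA per cell cannot be told apart.

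An interaction has a meaning only against a scale, and 2 scales were used. On the log scale the expectation is that the fold changes of the 2 agents multiply, and the interaction is the observed minus the expected log2(TPM + 1). On the TPM scale the expectation is that the amounts added by each agent sum (mean LPS plus mean IFNb minus mean Saline), and the departure is the log2 of the observed over this additive level, with 1 TPM added to each. A departure was tested in 8293 genes, those with an additive level of at least 1 TPM and at least 1 part in 4 of the largest of the 3 group means. Both used limma on all 8 libraries, and a gene is called at a Benjamini-Hochberg adjusted p under 0.05.

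On the log scale 1036 of 13009 genes (7.96%) had a called interaction, 457 positive (3.51%) and 579 negative (4.45%), with a median over all tested genes of 0.09. On the TPM scale 618 of 8293 genes (7.45%) departed from additivity, 72 above (0.868%) and 546 below (6.58%), with a median of −0.05. Scaling the libraries by the median ratio over genes in place of the TPM total changed the splits to 270 positive and 630 negative interactions, and to 110 departures above and 319 below, and moved the median interaction to −0.02. The scales disagreed most where both agents raised a gene. Of 747 genes higher with LPS alone and with IFNb alone, 443 had a negative and 1 a positive interaction on the log scale (59.3% and 0.134%), while 222 lay below and 23 above additive TPM (29.7% and 3.08%). Of 3357 genes lower with both agents, 317 had a positive and 1 a negative interaction (9.44% and 0.0298%). Among 3972 genes called with neither agent, 15 had a positive and 5 a negative interaction.

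**Figure D1:**
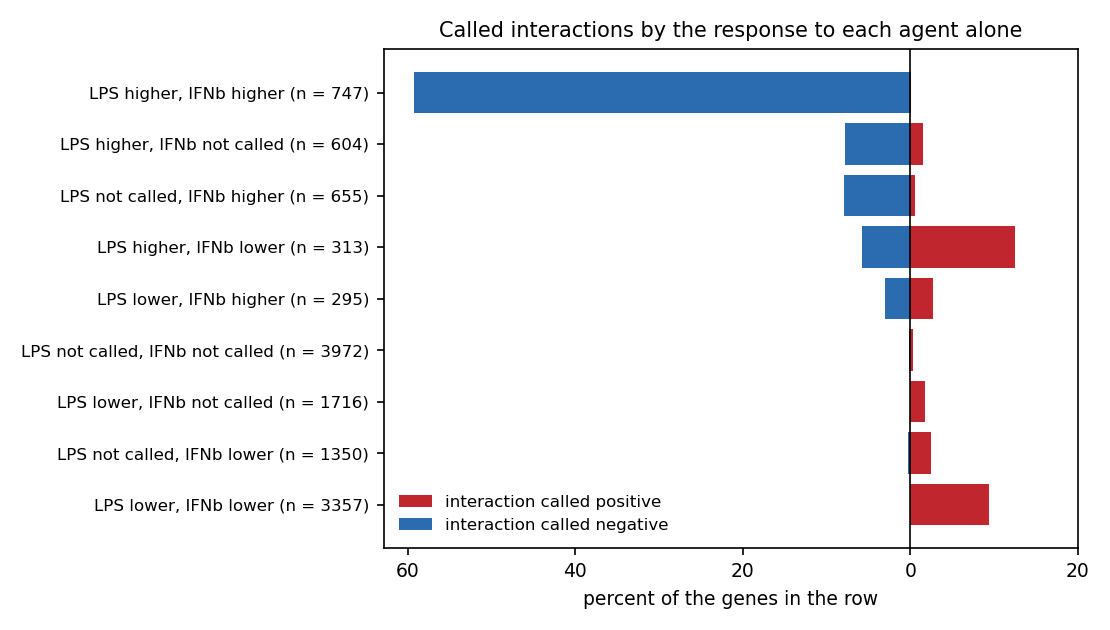
Percent of genes with a called interaction on the log scale, positive to the right in red and negative to the left in blue, for genes sorted by their called response to each agent alone (n is the number of genes). Negative calls reach 59.3% where both agents raised a gene, and positive calls 9.44% where both lowered it.

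LPS alone raised 12.8% and lowered 41.3% of the 13009 genes, and IFNb alone raised 13% and lowered 38.6%. Median-ratio factors were 1.269 and 1.393 for saline, 0.957 and 0.972 for LPS, 1.018 and 1.008 for IFNb, and 0.787 and 0.809 for LPS+IFNb. The typical gene thus held a smaller part of the fixed TPM total in stimulated libraries. Less RNA of many genes and a larger share taken by induced genes cannot be told apart in TPM. LPS+IFNb lay above LPS in 10.8% and below it in 24.1%, and above IFNb in 8.76% and below it in 30.5%. Genes raised by at least 1 agent alone were placed in response classes. They were called synergistic where LPS+IFNb exceeded LPS, IFNb and the additive level, each by its own test (55 genes, 0.423% of those tested), saturated where both agents raised the gene and LPS+IFNb lay below the additive level without lying below the higher single treatment (102 genes, 0.784%), and antagonised where LPS+IFNb lay below the higher single treatment (1009 genes, 7.76%). A further 1448 (11.1%) were additive or undecided. The antagonised class asks for no log-scale interaction, so a gene that 1 agent raised and the other lowered can fall in it. Of 295 genes lower with LPS and higher with IFNb, 247 were antagonised, and 9 had a negative and 8 a positive interaction (median 0.005). Of 313 genes higher with LPS and lower with IFNb, 208 were antagonised, and 18 had a negative and 39 a positive interaction (median 0.128). The synergistic genes together took 0.122% of the TPM with saline, 0.47% with LPS, 0.327% with IFNb and 1.37% with LPS+IFNb. After median-ratio scaling all 55 synergistic genes remained in their class, which grew to 91, whereas 18 of the 102 saturated and 503 of the 1009 antagonised genes kept theirs. Without LPS+IFNb replicate 1 or 2 only 17 or 19 of the 55 remained synergistic, and without 1 of the LPS or IFNb libraries 26 to 30.

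**Figure D2:**
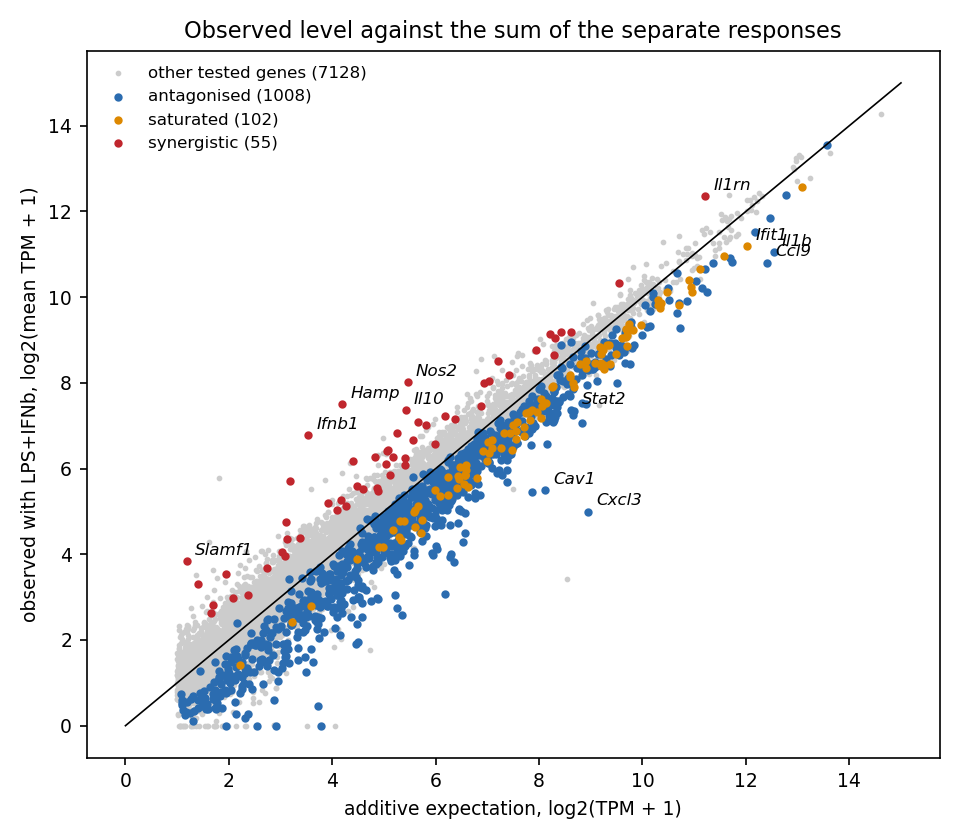
Each point is 1 of 8293 genes: the mean level with LPS+IFNb (vertical axis) against the additive expectation (horizontal axis), both as log2(TPM + 1), with the diagonal marking equality. Red points are synergistic, orange saturated and blue antagonised (1 antagonised gene had no additive test), and Hamp, Ifnb1, Nos2 and Slamf1 lie farthest above the line among the labelled genes, Cxcl3 and Cav1 farthest below.

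Promoter sequences of 5 genes picked from the classes are shown, 250 bases upstream of the transcription start in RefSeq (GRCm38.p6), read 5′ to 3′ on the gene's strand. They are examples and need not resemble the other members of a class. Hamp and Ifnb1 were synergistic, Ifit1 saturated, Stat2 antagonised with IFNb the higher single treatment, and Cxcl3 antagonised with LPS the higher. Capitals mark matches on either strand to the ISRE core (GAAA, any 2 bases, GAAA), the GAS core bound by STAT dimers (TTC, any 3 bases, GAA) or a kB site bound by NF-kB (GGGA, any 3 bases, TCC), and overlapping matches are joined.
Hamp, chr7:30944030-30944279, minus strand: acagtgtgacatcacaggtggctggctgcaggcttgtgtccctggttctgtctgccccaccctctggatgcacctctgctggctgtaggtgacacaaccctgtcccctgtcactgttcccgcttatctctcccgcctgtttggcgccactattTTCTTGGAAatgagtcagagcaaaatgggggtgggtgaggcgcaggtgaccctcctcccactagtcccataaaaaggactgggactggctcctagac
Ifnb1, chr4:88522795-88523044, minus strand: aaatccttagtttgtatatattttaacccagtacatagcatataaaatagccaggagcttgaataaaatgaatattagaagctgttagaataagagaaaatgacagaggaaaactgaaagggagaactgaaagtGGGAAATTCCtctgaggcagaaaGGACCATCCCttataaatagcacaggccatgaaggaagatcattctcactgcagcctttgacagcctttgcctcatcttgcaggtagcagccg
Ifit1, chr19:34640639-34640888, plus strand: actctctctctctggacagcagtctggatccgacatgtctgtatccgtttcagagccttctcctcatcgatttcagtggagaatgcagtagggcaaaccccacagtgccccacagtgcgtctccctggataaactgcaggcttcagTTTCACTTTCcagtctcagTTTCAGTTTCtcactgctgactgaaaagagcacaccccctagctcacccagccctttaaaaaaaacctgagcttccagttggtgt
Stat2, chr10:128270248-128270497, plus strand: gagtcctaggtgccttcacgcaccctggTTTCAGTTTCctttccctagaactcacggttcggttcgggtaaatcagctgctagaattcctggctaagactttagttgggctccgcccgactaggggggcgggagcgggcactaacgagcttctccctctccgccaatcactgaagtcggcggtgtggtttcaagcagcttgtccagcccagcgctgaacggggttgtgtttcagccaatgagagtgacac
Cxcl3, chr5:90785851-90786100, plus strand: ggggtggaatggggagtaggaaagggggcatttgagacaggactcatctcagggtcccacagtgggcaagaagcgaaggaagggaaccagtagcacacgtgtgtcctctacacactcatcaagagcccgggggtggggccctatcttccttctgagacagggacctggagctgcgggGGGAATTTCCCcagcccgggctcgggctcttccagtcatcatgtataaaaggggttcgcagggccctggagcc
Ifit1 held 2 ISRE core matches, Stat2 1, Hamp 1 GAS core match, and Ifnb1 and Cxcl3 2 kB matches each, those of Cxcl3 overlapping. The same window was searched in Slamf1 and Procr, which also lay above additive TPM. Their sequences are not printed and held 0 matches to any of these motifs. Of the 13009 tested genes 9180 had a promoter in the table. The ISRE core was in 15 of 75 saturated promoters, 8.81% of 454 antagonised promoters with IFNb the higher single treatment, 2.74% of 329 with LPS the higher, 2.27% of 44 synergistic promoters (1) and 3.67% of all tested promoters (3.46% of all 27025 genes in the table). The kB site was in 5.33% of saturated, 4.55% of synergistic, 6.08% of LPS-side antagonised and 5.48% of all tested promoters. The GAS core was in 13.6% of synergistic promoters (6 of 44) and 7.36% of all tested. A match is a run of letters, not a site shown to be bound.

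The synergistic class included Hamp and Slamf1, each about 10 times the additive level, and took in Ifnb1, the nitric oxide synthase Nos2 and the cytokine Il10. Hamp codes for hepcidin, the peptide that blocks iron export from macrophages. It stood at 0.519 and 0.481 TPM under saline, 16.5 and 18.5 under LPS, 0.269 and 0.239 under IFNb, and 187 and 173 under LPS+IFNb. IFNb alone thus left Hamp near the saline level, and the LPS+IFNb libraries lay far above all others. The observed mean was 10.4 times the additive level, a departure of 3.30 ± 0.12 (SE, log2; limma adjusted p = 0.00042), and the interaction was 3.54 ± 0.17 (adjusted p = 6.9e-05).

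Ifnb1, the gene of IFNb itself, is listed at 0 for each saline library, and stood at 10.9 and 10.01 TPM under LPS, 0.229 and 0.101 under IFNb, and 158 and 59.5 under LPS+IFNb. The LPS+IFNb libraries differed widely, but both lay above every other library. The departure was 3.24 ± 0.40 (adjusted p = 0.0072), and 2.38 without LPS+IFNb replicate 1 (adjusted p = 0.025). It was not called in a limma test on linear TPM (adjusted p = 0.27), and its log-scale interaction of 2.88 ± 0.57 (adjusted p = 0.032) lost its call when any 1 of the 6 libraries other than the LPS+IFNb ones was left out (adjusted p up to 0.18 over the alternatives). Slamf1, a self-binding receptor of the SLAM family that also recognises Gram-negative bacteria, stood at 0.36 and 0.305 TPM under saline, 1.16 and 1.34 under LPS, 0.285 and 0.421 under IFNb, and 12.1 and 14.6 under LPS+IFNb, 10.5 times the additive level (departure 2.66 ± 0.20, adjusted p = 0.0024).

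Nos2 makes nitric oxide from arginine. Its level was 0.0741 and 0.116 TPM under saline, 21.9 and 45.3 under LPS, 11.0 and 7.92 under IFNb, and 244 and 275 under LPS+IFNb, 6.03 times the additive level of 43.0 TPM (departure 2.57 ± 0.29, adjusted p = 0.0057). Its log-scale interaction was not called, at −0.25 ± 0.45 (adjusted p = 0.81), and its sign turned with median-ratio scaling (0.01) and without LPS replicate 2 (0.26), whereas with a pseudocount of 0.1 it was called at −2.57 (adjusted p = 0.031). Il10, the anti-inflammatory cytokine that restrains macrophages, stood at 0.323 and 0.152 TPM under saline, 28.3 and 23.2 under LPS, 15.7 and 16.9 under IFNb, and 159 and 168 under LPS+IFNb. The groups did not overlap, and the observed mean was 3.91 times the additive level (departure 1.94 ± 0.12, adjusted p = 0.002), though below the product of the fold changes (interaction −1.18 ± 0.19, adjusted p = 0.015; up to 0.069 and not called without LPS replicate 1, either IFNb library or either LPS+IFNb library). Of 55 synergistic genes, 28 also had a positive interaction on the log scale, 21 had none called and 6 had a negative one.

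Upp1, which splits uridine for use as a carbon source, was at 1.15 and 0.646 TPM under saline, 16.6 and 18.3 under LPS, 34.3 and 31.8 under IFNb, and 146 and 124 under LPS+IFNb, 2.72 times the additive level (departure 1.43 ± 0.14, adjusted p = 0.004). It lay below the product of the fold changes, with an interaction of −1.297 (limma adjusted p = 0.0197) that lost its call in 5 of 16 alternatives. Il1rn, the secreted antagonist of the IL-1 receptor and the largest of the class in absolute terms (chosen after its values were seen), stood at 149 and 178 TPM under saline, 1580 and 1737 under LPS, 966 and 767 under IFNb, and 5377 and 5100 under LPS+IFNb. Its observed mean exceeded the additive level by 2877 TPM (departure 1.15 ± 0.13, adjusted p = 0.0055). The log-scale interaction of Il1rn, −0.736, was not called (limma adjusted p = 0.0775). Ccng2, a cyclin-like gene of quiescent cells, reached 150 and 147 TPM against 62.8 to 68.3 under LPS and 37.4 to 41.9 under IFNb (departure 1.05 ± 0.10, adjusted p = 0.0039). The departures of Hamp, Slamf1, Nos2, Il10, Upp1, Il1rn and Ccng2 were called under all 18 alternatives run.

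**Figure D3:**
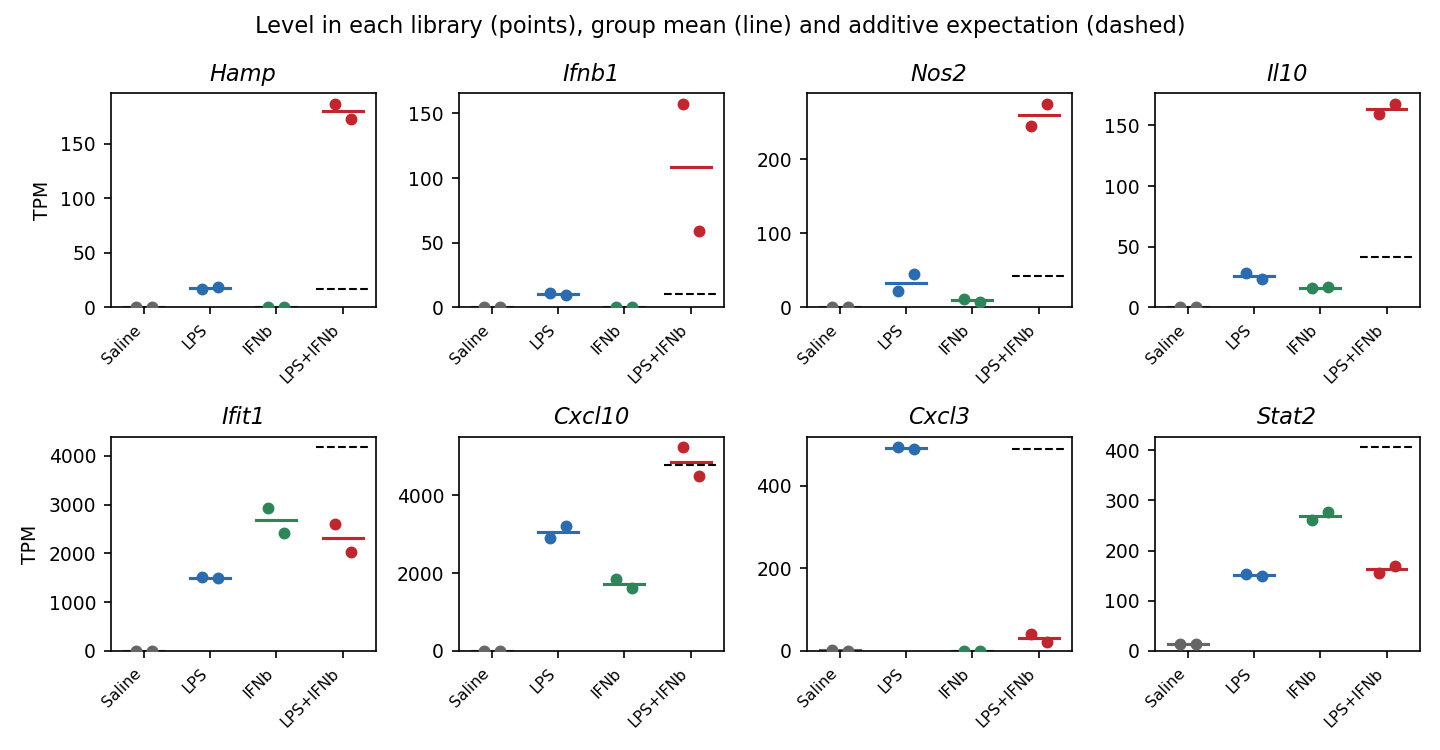
TPM in each library (points, 2 per group), with group means (solid lines) and the additive expectation for LPS+IFNb (dashed), for 8 genes on separate linear axes that start at 0. The LPS+IFNb points lie above the dashed line for Hamp, Ifnb1, Nos2 and Il10, around it for Cxcl10, and below it for Ifit1, Cxcl3 and Stat2.

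In a list of mRNA decay factors, MAP kinase phosphatases and 2 kinases of the p38 pathway, 4 of 14 tested members lay above additivity with LPS+IFNb and 2 below, against 0.868% and 6.58% of all genes so tested (list median departure 0.08 against −0.05). Dusp2, a nuclear phosphatase of ERK and p38, stood at 10.1 and 8.28 TPM under saline, 118 and 132 under LPS, 5.04 and 6.31 under IFNb, and 245 and 260 under LPS+IFNb (departure 1.05 ± 0.14, adjusted p = 0.0096). Dusp1, a phosphatase of p38 and JNK, and Zfp36, the tristetraprolin that speeds decay of Tnf mRNA, were chosen after their values were seen. Their log-scale interactions of 0.219 and 0.314 were not called (limma adjusted p = 0.492 and 0.446). From additive TPM they departed by 0.76 ± 0.11 (adjusted p = 0.013) and 0.75 ± 0.15 (adjusted p = 0.032). These calls were lost when 1 LPS or LPS+IFNb library was left out: Dusp2 without LPS replicate 1 or either LPS+IFNb library, Dusp1 without any of those 4 libraries, and Zfp36 without any of those 4 or either IFNb library (adjusted p up to 0.061, 0.077 and 0.17). The 2 members below additivity were the kinases Mapk14, which codes for p38 alpha, and Mapkapk2, its substrate. Mapk14 stood at 49.7 and 60.4 TPM under saline, 138 and 126 under LPS, 18.1 and 16.6 under IFNb, and 20.2 and 23.02 under LPS+IFNb, so the LPS+IFNb level sat with that of IFNb alone (departure −2.08 ± 0.17, adjusted p = 0.0026). Its log-scale interaction of −0.953 (limma adjusted p = 0.0291) was lost in 9 of 16 alternatives.

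Antiviral genes fell short of the product of the separate fold changes. The fixed TPM total of a library limits how many such products can be reached together, as given below with Cxcl10. Of 62 tested antiviral interferon-stimulated genes, 57 were higher with each agent alone, 55 had a negative interaction on the log scale and none a positive one, nor at an unadjusted limma p under 0.05 (median −2.97, against 0.09 over all genes). On the TPM scale 31 of 62 lay below additivity and none above, 1 at an unadjusted p under 0.05 (median departure −0.51), and 20 were in the saturated class. Ifit1, whose product binds viral RNA lacking a methylated cap, stood at 5.55 and 4.59 TPM under saline, 1518 and 1487 under LPS, 2938 and 2424 under IFNb, and 2608 and 2039 under LPS+IFNb. The LPS+IFNb and IFNb libraries overlapped, and the observed mean was 0.556 of the additive level (departure −0.85 ± 0.13, adjusted p = 0.015; interaction −8.17 ± 0.22, adjusted p = 1.3e-05). Mx1, a GTPase that traps viral ribonucleoproteins, showed 786 and 755 TPM under LPS, 1215 and 1229 under IFNb, and 1050 and 1171 under LPS+IFNb from 5.83 and 7.33 under saline (departure −0.84 ± 0.10, adjusted p = 0.0059). Cgas, the sensor of cytosolic DNA, reached about the same level in every stimulated group: 30.1 and 27.0 TPM under LPS, 22.9 and 24.3 under IFNb, and 23.2 and 24.5 under LPS+IFNb, against 4.91 and 4.69 under saline (departure −0.96 ± 0.09, adjusted p = 0.004).

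How far the antiviral genes fell short of additivity depended on scaling. With median-ratio scaling 9 of the 62 lay below and 1 above (median departure −0.23), while the 55 negative log-scale interactions stayed at 55. The departure of Ifit1 was then no longer called, nor with upper-quartile scaling. It was also lost without LPS replicate 1, IFNb replicate 1 or LPS+IFNb replicate 2. The departure of Mx1 was lost without LPS+IFNb replicate 1, while that of Cgas was called in all 18 alternatives. Of 18 GTPases of the GBP and IRG families, which attack vacuoles of intracellular microbes, 14 had a negative interaction (median −3.58) and 8 of 17 lay below additive TPM, 1 of 17 with median-ratio scaling. Among 19 other Toll-like receptors and nucleic acid sensors 10 had a negative interaction (median −1.39), and among 23 genes of MHC class I and the immunoproteasome 11 did (median −0.64), with none positive in either list (1 and 0 at an unadjusted p under 0.05). The counts were 0 of 11 MHC class II, 0 of 47 ribosomal protein and 0 of 13 mitochondrially encoded genes with a called interaction in limma, and 0, 1 and 1 at an unadjusted p under 0.05 (medians 0.10, 0.02 and 0.11).

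Some of the most induced genes stayed near the sum of the separate amounts. Cxcl10, a chemokine for activated T cells, stood at 1.95 and 2.31 TPM under saline, 2901 and 3206 under LPS, 1848 and 1610 under IFNb, and 5240 and 4490 under LPS+IFNb, against an additive level of 4780 TPM. Its departure was 0.03 ± 0.11 (adjusted p = 0.94), while its log-scale interaction of −8.44 ± 0.17 (adjusted p = 4.6e-06) was the most negative of all 13009. The product of its fold changes came to 1686569 TPM, above the 1000000 TPM that a library sums to. This sign was fixed by that ceiling, and no other tested gene had a product above it. The total is shared by all genes, however. The products of Ifit1 (664169 TPM) and Rsad2 (582401 TPM) could not both be reached in 1 library. How far the shared total set other negative interactions was not tested. Isg15, a ubiquitin-like modifier, stood at 3338 and 3023 TPM under LPS+IFNb against 3226 expected (departure −0.02 ± 0.17), and Acod1, the enzyme that makes itaconate, at 1948 and 2089 against 2061 (departure −0.03 ± 0.10). Ccl2, a monocyte chemokine, stood at 2656 and 1853 TPM against 1885 (departure 0.26 ± 0.18). None of these 4 departures was called; a p that misses the threshold does not show exact additivity. Il6 stood at 0.168 and 0.635 TPM under saline, 131 and 129 under LPS, 8.95 and 5.62 under IFNb, and 269 and 205 under LPS+IFNb, and its departure of 0.78 ± 0.25 was not called either (adjusted p = 0.13).

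**Figure D4:**
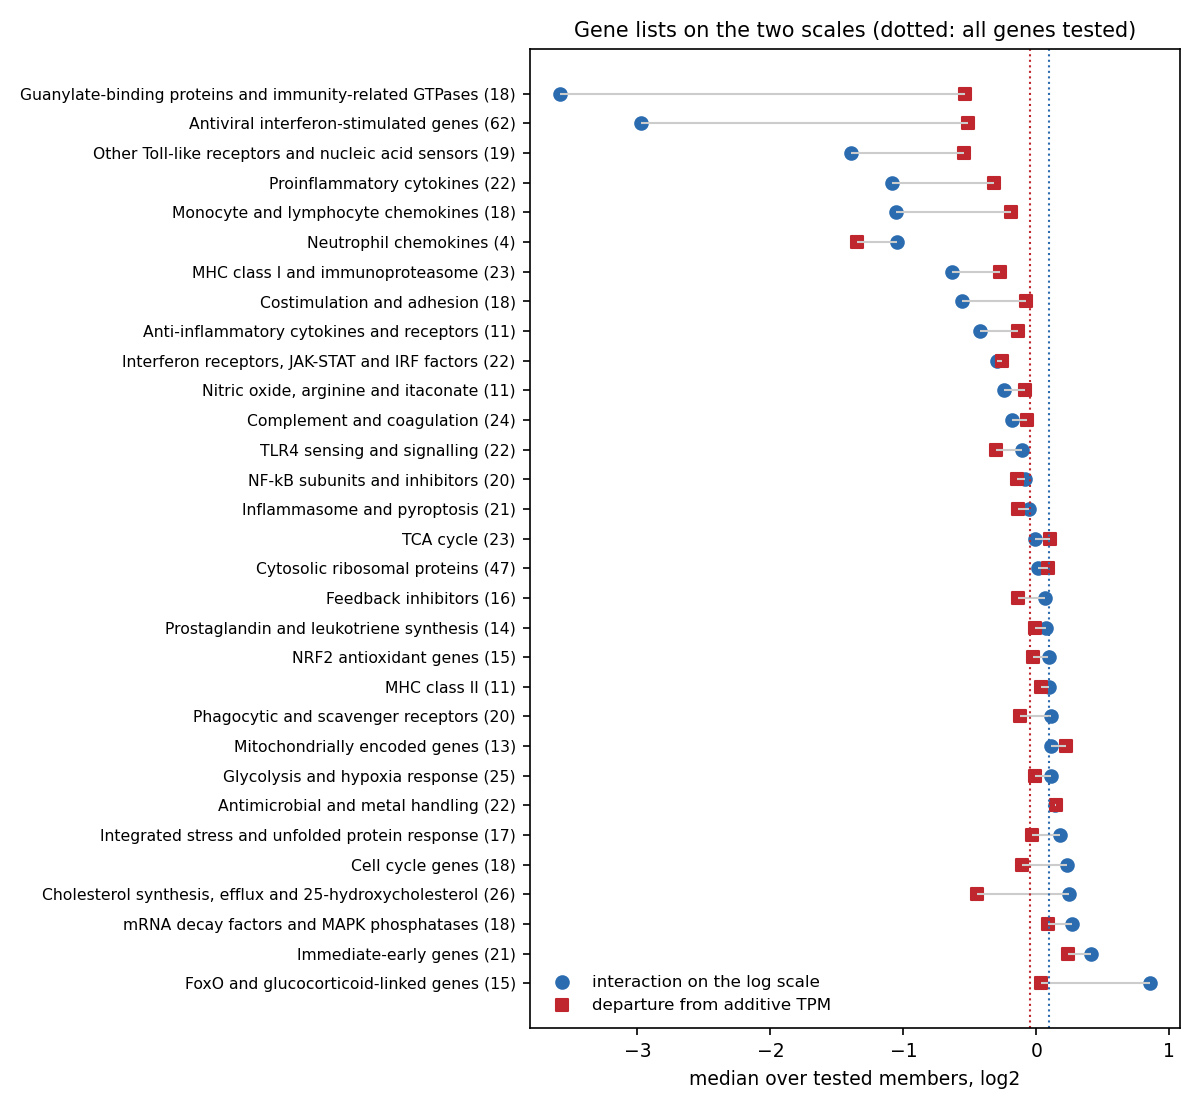
Median over the tested members of each gene list (number in brackets) of the interaction on the log scale (blue circles) and of the departure from additive TPM (red squares), both in log2 units, with dotted lines at the medians over all tested genes. Lists with under 4 members in the additive test and cell type markers are not drawn. The antiviral and GTPase lists sit at −2.97 and −3.58 on the log scale and at −0.51 and −0.54 on the TPM scale, neutrophil chemokines lie lowest on the TPM scale, and of the lists drawn FoxO and glucocorticoid-linked genes lie highest on the log scale.

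Antagonism took a different set of inflammatory genes. In 420 antagonised genes LPS was the higher single treatment, and in these IFNb given before LPS went with a lower level than LPS alone. IFNb alone lowered 208 of them, raised 29, and was not called in the others. On the log scale 94 of these 420 had a negative interaction and 8 a positive one. All 4 tested neutrophil chemokines were in this class and lay below additive TPM (median departure −1.35, and 2 of 4 called with median-ratio scaling). For Cxcl2, chosen after its values were seen, this was weakly held (departure −0.954, limma adjusted p = 0.0435). Its call was lost in 14 of 18 alternatives, among them upper-quartile scaling, a pseudocount of 0.1 and the linear test. Only 1 of the 4, Cxcl3, had a called interaction on the log scale. Cxcl3 stood at 1.23 and 1.20 TPM under saline, 493 and 488 under LPS, 0.0785 and 0.0725 under IFNb, and 40.2 and 21.6 under LPS+IFNb. Both LPS+IFNb libraries lay far below both LPS libraries, at 0.063 of the additive level (departure −3.94 ± 0.26, adjusted p = 0.0023; interaction −2.97 ± 0.36, adjusted p = 0.0051, not called with a pseudocount of 0.1, adjusted p = 0.16). Cxcl1, its relative (chosen after its values were seen), fell from 761 and 686 TPM under LPS to 303 and 207 under LPS+IFNb (departure −1.50 ± 0.19, adjusted p = 0.0072). The log-scale interaction of Cxcl1, −0.996, was not called (limma adjusted p = 0.0764).

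The cytokine Il1b stood at 5.28 and 7.06 TPM under saline, 6242 and 5628 under LPS, 2.76 and 5.70 under IFNb, and 2093 and 2152 under LPS+IFNb, 0.358 of the additive level (departure −1.48 ± 0.26, adjusted p = 0.022). The log-scale interaction of Il1b, −0.977, was not called (limma adjusted p = 0.178). Tnf, which IFNb alone raised, stood at 7.06 and 6.69 TPM under saline, 2238 and 1925 under LPS, 27.2 and 30.5 under IFNb, and 1284 and 1370 under LPS+IFNb (departure −0.66 ± 0.10, adjusted p = 0.014; interaction −2.57 ± 0.15, adjusted p = 0.00015). Both departures kept their sign but were not called with median-ratio scaling, without LPS replicate 1 or without either LPS+IFNb library, and for Il1b also without LPS replicate 2 (adjusted p up to 0.12 for Il1b and 0.15 for Tnf), while the Tnf interaction was called in all 16 alternatives. Il12b, the p40 subunit of IL-12 and IL-23, varied between replicates (130 and 54.2 TPM under LPS, 7.43 and 29.8 with LPS+IFNb), and its departure of −2.24 ± 0.64 was not called (adjusted p = 0.098). Over 22 proinflammatory cytokines 10 had a negative interaction and none a positive one (3 at an unadjusted p under 0.05), whereas 6 lay below and 2 above additivity, Il27 and Ifng being above (median departure −0.32). With median-ratio scaling 3 lay below and 3 above (median −0.065). On the log scale Il27 lay below the product of its fold changes (interaction −3.376, limma adjusted p = 0.000626), called in all 16 alternatives. Il27, an interferon-linked cytokine that dampens T helper responses, stood at 224 and 197 TPM under LPS, 31.1 and 38.3 under IFNb, and 404 and 460 under LPS+IFNb (departure 0.82 ± 0.17, adjusted p = 0.039, lost in 10 of 18 alternatives, among them leaving out any LPS, IFNb or LPS+IFNb library, adjusted p up to 0.20).

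Other genes of this class included Ccl9, Slc7a11, Cav1, Olr1 and Icam1. Ccl9, a CCR1 ligand made by macrophages, stood at 225 and 250 TPM under saline, 5489 and 5137 under LPS, 364 and 322 under IFNb, and 1837 and 1735 under LPS+IFNb, a mean of 1786 against an additive level of 5418 (departure −1.60 ± 0.10, adjusted p = 0.002). Slc7a11, the cystine importer that feeds glutathione synthesis, stood at 4.62 and 7.38 TPM under saline, 88.2 and 75.2 under LPS, 5.22 and 4.25 under IFNb, and 12.7 and 13.5 under LPS+IFNb (departure −2.53 ± 0.21, adjusted p = 0.0027). Cav1, the caveolae protein, fell from 311 and 256 TPM under LPS to 39.5 and 48.5 under LPS+IFNb (departure −2.62 ± 0.20, adjusted p = 0.0026), and Olr1, a receptor for oxidised LDL, from 256 and 213 to 40.8 and 45.1 (departure −2.40 ± 0.24, adjusted p = 0.004). Icam1, the adhesion ligand of leukocyte integrins, went from 831 and 762 TPM to 303 and 399, although IFNb alone raised it from 17.4 and 19.5 to 29.8 and 32.1 (departure −1.20 ± 0.14, adjusted p = 0.006). In each of these 5 genes the LPS and LPS+IFNb libraries did not overlap, and the departures were called in all 18 alternatives. The log-scale interactions of Ccl9, Slc7a11 and Icam1 were called in all 16 alternatives, those of Olr1 and Cav1 in 8 and 13.

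In the other 589 antagonised genes IFNb was the higher single treatment. LPS alone lowered 247 of them and raised 98. On the log scale 159 of these 589 had a negative interaction and 6 a positive one. With median-ratio scaling this side held 334 genes and the LPS side 409, so the excess on the IFNb side was not kept. Components of the interferon pathway were among them. Stat2, the STAT that carries ISGF3, stood at 13.3 and 13.8 TPM under saline, 154 and 150 under LPS, 260 and 276 under IFNb, and 155 and 170 under LPS+IFNb. Its LPS+IFNb level lay beside that of LPS alone (a difference of 0.09 ± 0.08 in log2, adjusted p = 0.43) and below that of IFNb alone (departure −1.32 ± 0.07, adjusted p = 0.002). Socs1, the feedback inhibitor of JAK kinases, went from 125 and 128 TPM under IFNb to 77.4 and 79.0 under LPS+IFNb, with 43.8 and 45.5 under LPS (departure −1.11 ± 0.15, adjusted p = 0.0097). The Socs1 departure was not called with a pseudocount of 0.1, nor without either IFNb or either LPS+IFNb library.

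Tnfsf10, Cd274, S1pr2, Spry2 and Keap1 were also lower with LPS+IFNb than with IFNb. Tnfsf10, the death ligand TRAIL, stood at 0.483 and 0.514 TPM under saline, 5.77 and 4.21 under LPS, 144 and 155 under IFNb, and 53.5 and 60.5 under LPS+IFNb (departure −1.42 ± 0.15, adjusted p = 0.0045). Cd274, the checkpoint ligand PD-L1, reached 880 and 867 TPM under IFNb and 626 and 648 under LPS+IFNb, against 308 and 330 under LPS (departure −0.82 ± 0.06, adjusted p = 0.0026). In S1pr2 the LPS+IFNb libraries lay beside the LPS libraries. S1pr2, a receptor for sphingosine 1-phosphate, stood at 77.2 and 78.4 TPM under saline, 13.9 and 13.4 under LPS, 145 and 137 under IFNb, and 14.0 and 14.8 under LPS+IFNb (departure −2.33 ± 0.14, adjusted p = 0.002). Spry2, an inhibitor of growth factor signalling, showed 44.3 and 40.7 TPM under IFNb and 5.78 and 5.64 under LPS+IFNb (departure −2.51 ± 0.16, adjusted p = 0.0023), and Keap1, the adaptor that degrades NRF2, 81.5 and 91.0 and then 32.1 and 32.4 (departure −1.39 ± 0.14, adjusted p = 0.004). The departures of Stat2, Tnfsf10, Cd274, S1pr2, Spry2 and Keap1 were called in all 18 alternatives. The log-scale interactions of S1pr2 and Spry2 were called in 12 and 15 of 16, those of the others in all 16.

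Genes that the agents lowered gave most of the positive interactions. Of the genes lower with at least 1 agent and higher with neither, 381 (2.93% of those tested) lay above the product of the separate fold changes (the mutually weakened class). Another 5 (0.0384%) lay below it: Metrnl, Gpatch4, Noc3l, Smyd5 and Bysl. The class does not ask for a fall with the combination. Its member Dusp7 was called above saline with LPS+IFNb (0.72 ± 0.19 in log2, limma adjusted p = 0.0123). Of the 381, 317 were lower with both agents alone, and 324 were called below saline with LPS+IFNb, as were 54.1% of all tested genes. The class name does not mean that the agents offset each other. In 152 of the 381 the LPS+IFNb mean lay below both single treatments, and in 43 both differences were called. For 82 of the 381 the product lay under 0 TPM, a level that cannot be reached, so for these 82 the sign is fixed by the floor. Cxcr4, the receptor for CXCL12, stood at 192 and 160 TPM under saline, 5.11 and 4.60 under LPS, 35.0 and 36.9 under IFNb, and 9.97 and 7.22 under LPS+IFNb (interaction 2.95 ± 0.23, adjusted p = 0.00068). Its LPS+IFNb level lay between those of the single treatments. The product of its fold changes was 0.226 TPM, close to the floor, which left little room for a negative interaction. Tsc22d3, the glucocorticoid-induced leucine zipper, stood at 140 and 136 TPM under saline, 7.80 and 7.17 under LPS, 55.4 and 52.6 under IFNb, and 7.82 and 8.40 under LPS+IFNb, so IFNb made no called difference in the presence of LPS (0.10 ± 0.09, adjusted p = 0.44; interaction 1.44 ± 0.13, adjusted p = 0.0013). Sesn1, a stress-induced inhibitor of mTORC1, went lower in the combination than with either agent, 0.716 and 0.837 TPM against 1.76 and 2.01 under LPS and 5.38 and 6.49 under IFNb, and its interaction was 2.03 ± 0.22 (adjusted p = 0.0026). Its product lay under 0 TPM, so this sign too was fixed by the floor.

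Over 15 FoxO and glucocorticoid-linked genes 4 had a positive interaction and none a negative one (1 at an unadjusted p under 0.05; median 0.86, 0.78 with median-ratio scaling): Cxcr4, Tsc22d3, Sesn1 and the synergistic Ccng2. The floor fixed the sign of Sesn1, and the product of Cxcr4 (0.226 TPM) lay close to it. Positive interactions took 3.51% of all tested genes and 9.44% of those lower with both agents. Over 21 immediate-early genes 4 were positive and 1 negative (median 0.41). With median-ratio scaling the mutually weakened class held 192 genes, 190 of them among the 381. Of 20 large peritoneal macrophage markers 1 had a called interaction, the phagocytic receptor Cd93, and with median-ratio scaling none did.

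For some genes an agent's effect changed sign in the presence of the other, each effect and the interaction being called. IFNb lowered 51 genes alone and raised them with LPS (0.392% of those tested), and did the opposite in 33 (0.254%). LPS raised 103 genes alone and lowered them after IFNb (0.792%), and did the opposite in 30 (0.231%). In 14 genes (0.108%) both agents reversed. These counts were made after earlier results of the data were known, and fell to 62 for IFNb and 61 for LPS with median-ratio scaling, from 84 and 133. Dusp7, a phosphatase of ERK, stood at 27.5 and 35.0 TPM under saline, 19.1 and 15.7 under LPS, 10.2 and 7.44 under IFNb, and 54.0 and 49.6 under LPS+IFNb. Each agent alone lowered it and the combination lay above every other library (interaction 3.25 ± 0.26, adjusted p = 0.00078).

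Procr, the endothelial protein C receptor, stood at 19.0 and 19.1 TPM under saline, 30.3 and 28.1 under LPS, 11.0 and 9.15 under IFNb, and 71.9 and 70.0 under LPS+IFNb. IFNb lowered it by itself (−0.86 ± 0.11 in log2) and raised it with LPS (1.25 ± 0.11; interaction 2.11 ± 0.16, adjusted p = 0.00057). Mcoln2, an ion channel of endosomes, went from 39.6 and 39.3 TPM under saline to 14.8 and 15.9 under IFNb, and from 53.9 and 69.0 under LPS to 101 and 126 under LPS+IFNb (interaction 2.19 ± 0.21, adjusted p = 0.0018). Btg1, an antiproliferative gene, and Il17ra, the IL-17 receptor chain, both chosen after their values were seen, had the same pattern: Btg1 stood at 75.4 and 80.4 TPM under saline, 180 and 155 under LPS, 40.2 and 39.9 under IFNb, and 274 and 255 under LPS+IFNb, and Il17ra at 15.9 and 18.2, 60.7 and 50.1, 8.66 and 7.78, and 95.8 and 104. Hopx, a homeodomain cofactor also chosen after its values were seen, stood at 18.8 and 17.7 TPM under saline, 13.8 and 14.1 under LPS, 22.8 and 20.3 under IFNb, and 58.5 and 58.3 under LPS+IFNb (interaction 1.76 ± 0.14, adjusted p = 0.00066). In the other direction, IFNb raised the chemokine Ccl4 from 18.1 and 21.4 to 392 and 300 TPM by itself, and with LPS the level was 3913 and 3451 against 5048 and 5603 without IFNb (interaction −4.59 ± 0.22, adjusted p = 6.8e-05). The interactions of Dusp7, Procr, Mcoln2, Btg1, Il17ra, Hopx and Ccl4 were called in all 16 alternatives.

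**Figure D5:**
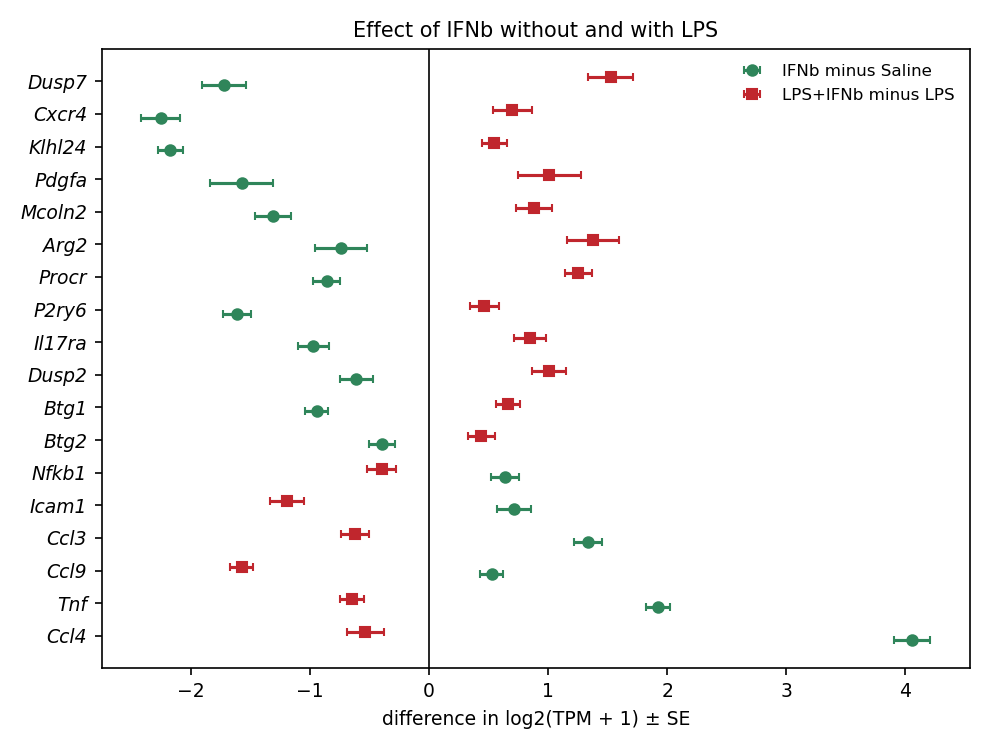
Difference in log2(TPM + 1) made by IFNb without LPS (green circles) and with LPS (red squares), with SE bars from the limma model, for the 18 named genes in which both differences and the interaction were called and the signs were opposite. The 12 upper genes, from Dusp7 to Btg2, were lowered by IFNb alone and raised with LPS, and the 6 lower genes, from Nfkb1 to Ccl4, the reverse. The interaction of Btg2 was lost in 8 of 16 alternatives and that of Nfkb1 in 5.

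Few genes responded to the combination alone. Among genes called with neither agent, 15 (0.115%) were higher and 5 (0.0384%) lower with a called interaction. Tgif1, a corepressor of TGF-beta signalling, stood at 107 and 108 TPM under saline, 123 and 112 under LPS, 94.7 and 106 under IFNb, and 206 and 204 under LPS+IFNb (interaction 0.91 ± 0.13, adjusted p = 0.0085), and was called in all 16 alternatives. Rest, the repressor of neuronal genes, stood at 17.0 and 21.3, 20.01 and 19.8, 17.7 and 15.9, and 39.7 and 40.3 TPM in the same order (interaction 1.14 ± 0.18, adjusted p = 0.014), and lost its call without either LPS library, IFNb replicate 2 or either LPS+IFNb library (adjusted p up to 0.062). Pex13, a peroxisomal import protein, was lower at 14.6 and 14.2 TPM against 21.6 to 35.4 in the other 6 libraries (interaction −1.02 ± 0.20, adjusted p = 0.031, lost in 8 of 16 alternatives, among them leaving out any LPS, IFNb or LPS+IFNb library, adjusted p up to 0.11).

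The receptor genes Tlr4 and Ifnar1 had no called interaction. Tlr4 stood at 44.1 and 39.9 TPM under saline, 12.2 and 10.6 under LPS, 61.9 and 73.4 under IFNb, and 21.9 and 25.3 under LPS+IFNb, and Ifnar1 at 76.5 and 86.4, 208 and 195, 74.2 and 72.7, and 167 and 181. Their log-scale interactions of 0.32 ± 0.19 (adjusted p = 0.38) and −0.06 ± 0.13 (adjusted p = 0.83) were not called. Against 7.96% over all tested genes, called interactions took 2 of 22 genes in TLR4 sensing and signalling, 5 of 20 NF-kB subunits and inhibitors, and 7 of 22 interferon receptors, JAK-STAT and IRF factors. Over the TLR4 list 2 had a negative interaction and none a positive one (2 at an unadjusted p under 0.05; median −0.11), and 3 of 19 lay below additive TPM. Of 20 NF-kB subunits and inhibitors 4 were negative and 1 positive (median −0.09), among them Nfkb1, the p50 precursor, at 411 and 434 TPM under LPS and 305 and 336 under LPS+IFNb (interaction −1.04 ± 0.17, adjusted p = 0.016, lost without either LPS library, either IFNb library or LPS+IFNb replicate 1, adjusted p up to 0.072). Of 22 interferon receptors, JAK-STAT and IRF factors 6 were negative and 1 positive, the lymphoid and myeloid factor Irf4, at 6.75 and 6.93 TPM under LPS+IFNb against 2.12 to 3.55 in the others (interaction 0.92 ± 0.19, adjusted p = 0.038, lost without any 1 library, adjusted p up to 0.12).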

How the data were processed

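The labels name total RNA and an Illumina TruSeq kit. The authors deposited 1 file of TPM values for 88198 transcripts per library. Per the submitters' processing notes they used kallisto, a pseudoaligner, and mm10; its version, the transcript set and the strand setting were not given in the sources used here. Near-identical genes share reads that this method divides between them, and depth is unknown.

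TPM was summed per gene with GENCODE M21 (GRCm38), which held 86119 of the transcript IDs; the other 2079 took 1.01% to 1.95% of a library. A gene was tested if 2 or more libraries reached 1 TPM. limma 3.58.1 (R 4.3.3, intensity trend) was fitted to log2(TPM + 1), a scale that understates the change of low genes, with 1 mean per group (degrees of freedom: 4 residual, 2.54 prior). Tests were two-sided, p-values Benjamini-Hochberg adjusted over all genes of a test. The departure's SE follows from the same fit by the delta method. On simulated data with normal noise at the fitted spread, changes were given to genes whose log2(TPM + 1) averaged 3 or more. Of these, 31 of 100 interactions of log2 1 and 89 of 100 of log2 2 were recovered with 2 false calls (12816 genes tested). Recovered departures were 45 and 73 of 100, with 8 false calls (8318 genes). The 520 genes with a product under 0 TPM were not counted among the false interaction calls, so the simulation does not speak for genes at the floor.

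Named genes were the 12 largest interactions each way among called genes whose log2(TPM + 1) averaged 3 or more, up to 4 called members of a list per direction, up to 8 per class by departure, and a set of focal genes; of the 158 so named a part is printed, and others are marked as chosen after their values were seen; some named genes are not reported here. Members and lists were chosen with earlier results of these data known. Alternatives were other scalings, a pseudocount of 0.1, other filters and thresholds, no intensity trend, the replicate block, a linear test, a stricter additive filter and each library left out.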

Additional observations from a re-analysis of the deposited data

Results flagged for a closer look

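Among the genes named, the effect of an agent had opposite signs without and with the other agent, each called in limma at an adjusted p under 0.05 as was the interaction, in 30 cases. The value given for each is the interaction in log2.

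IFNb alone lowered and, with LPS, raised Btg2 (0.83), Btg1 (1.60), Dusp2 (1.62), Il17ra (1.82), P2ry6 (2.08), Procr (2.11), Arg2 (2.11), Mcoln2 (2.19), Pdgfa (2.58), Klhl24 (2.72), Cxcr4 (2.95), Dusp7 (3.25). The reverse held for Ccl4 (−4.59), Tnf (−2.57), Ccl9 (−2.10), Ccl3 (−1.96), Icam1 (−1.91), Nfkb1 (−1.04). The Btg2 interaction was not called in 8 of 16 alternatives: median-ratio scaling, the replicate block, and without Saline replicate 2, either LPS library, either IFNb library or LPS+IFNb replicate 1 (adjusted p up to 0.11).

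LPS alone lowered and, after IFNb, raised Hopx (1.76), P2ry6 (2.08), Pdgfa (2.58), Klhl24 (2.72), Gadd45a (2.74), Dusp7 (3.25). The reverse held for Cmpk2 (−6.81), Cd69 (−5.80), Socs1 (−5.51), Stat2 (−4.11), Tnfsf10 (−3.36), Cd274 (−2.72). Klhl24, P2ry6, Pdgfa and Dusp7 stand in both sets. The LPS+IFNb libraries were also taken later after IFNb than the IFNb libraries, so time and combination cannot be told apart.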

How the results depend on the processing

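With median-ratio scaling there were 270 positive interactions, 110 departures above and 319 below additivity, 91 synergistic, 49 saturated and 192 mutually weakened genes, and 61 reversals of the LPS effect, which upper-quartile scaling left at 80. With no filter on low values there were 294 positive interactions, 236 mutually weakened genes and 51 reversals of the IFNb effect. An adjusted p under 0.01 gave 95 positive and 306 negative interactions, 23 departures above and 168 below, 20 synergistic, 444 antagonised, 38 saturated, 75 mutually weakened and 4 combination-only genes, and 23 and 41 reversals for IFNb and LPS. A minimum log2 value of 1 gave 284 positive and 436 negative interactions, 42 departures above and 208 below, 21 synergistic, 222 antagonised, 13 saturated, 224 mutually weakened and 49 combination-only genes, and 6 and 12 reversals. The cause was not tested where a scaling moved a count. Alternatives for the reversals were chosen after seeing the data.

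Leaving out each library gave 127 to 443 positive and 340 to 628 negative interactions, 22 to 71 departures above and 161 to 784 below, 17 to 53 synergistic, 586 to 1138 antagonised, 27 to 146 saturated, 99 to 377 mutually weakened and 4 to 24 combination-only genes, and 38 to 104 and 59 to 168 reversals for IFNb and LPS. A group then has 1 library, assumed to vary like the others. The replicate block gave 263 positive and 465 negative interactions, 56 departures above and 424 below, 43 synergistic, 903 antagonised, 77 saturated, 216 mutually weakened and 8 combination-only genes, and 66 and 104 reversals. Same-numbered libraries deviated with correlations of −0.156 to 0.141 between groups. Such correlations cannot show whether they share an animal, day or batch, which the labels do not state.

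For the genes named, 1367 of 1567 interaction alternatives and 1294 of 1547 departure alternatives kept direction and call. Signs turned only for values that were not called. With median-ratio scaling the departure was 0.252 for Acod1, 0.114 for Casp4, 0.046 for Ccl5, 0.199 for Gbp2, 0.039 for Irf7 and 0.297 for Isg15, and the Nos2 interaction 0.011. With upper-quartile scaling it was 0.117 for Acod1, 0.067 for Gbp2 and 0.162 for Isg15. Over the libraries left out, departures ranged from −0.106 to 0.050 for Acod1, −0.024 to 0.495 for Ccl2, −0.090 to 0.133 for Cxcl10, −0.068 to 0.766 for Cxcl9 and −0.094 to 0.049 for Isg15, and interactions from −0.152 to 0.022 for Ifnar1 and −0.754 to 0.262 for Nos2.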
